A study of Arabidopsis thaliana with 16 samples.

Results

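The transcripts described here are those read by a block of 150 probe sets of the Affymetrix ATH1 array, an oligonucleotide array of Arabidopsis thaliana on which a probe set is a group of short probes for a transcript. The block is a run of consecutive probe set numbers, taken whatever the suffix and without use of any measured value, and it makes up 150 of the 22746 probe sets that are not array controls. The annotation lists 77 of them for genes of the chloroplast genome and 13 for genes of the mitochondrial genome, so that 90 are organelle probe sets by their listed genes. Another 45 have no gene in the annotation used here. The remaining 15 are listed at nuclear loci of chromosome 2, which goes against the idea of a block of organelle genes only. Of these, 5 lie among the AT2G07 loci, a region where nuclear chromosome 2 of the Columbia ecotype is known to carry a large copy of mitochondrial DNA. The other 10 are nuclear genes such as YAB5, a transcription factor of leaf polarity, and they are kept apart from the organelle transcripts below.

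Plant cells hold a small circular genome in each plastid and another in each mitochondrion, both inherited from bacterial ancestors. The chloroplast genome encodes part of both photosystems, the cytochrome b6f complex, the ATP synthase, an NADH dehydrogenase-like (NDH) complex, a bacterial-type RNA polymerase and some ribosomal proteins. The mitochondrial genome encodes part of the respiratory complexes, proteins that assemble cytochrome c and a few ribosomal proteins. Both genomes encode some further proteins as well, but most organelle proteins are made from nuclear genes and imported. Organelle transcripts are made in many copies, often several genes to a transcript, and most lack the long poly(A) tail of nuclear messengers, which bears on how well they are labelled where labelling starts from that tail. The labels name the standard Affymetrix protocol and give no primer.

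The cells were a suspension culture of ecotype Landsberg erecta kept in the dark, so their plastids were not the green chloroplasts of leaves. Cells received 2 µM TA, 100 nM IXB or the solvent methanol alone 3 days after sub-culture and were collected 6 h later. The series title calls both compounds inhibitors of cellulose synthesis, and the usual expansions of the abbreviations are thaxtomin A and isoxaben. All flasks, controls included, received the same 20 µL of methanol. Each condition had 4 replicates, and each replicate pooled 2 flasks of 100 mL. The replicates are biological ones by their labels, with no parent culture named for each. Error estimates therefore cover the differences seen among these 4 samples a group, which may be technical in part. The 4 methanol arrays were deposited once with TA and once with IXB, which gave 16 columns from 12 arrays. The values are log2 intensities made by the authors with RMA, a method that brings all arrays to a common distribution. Column medians lay between 4.76 and 4.85 in the TA set and between 5.20 and 5.30 in the IXB set, so levels are compared only within a set.

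Chloroplast transcripts gave clear signals in these dark-grown cells. A mean of at least 5 log2 with methanol in the TA set was reached by 73 of 77 chloroplast probe sets (94.8%) and 10 of 13 mitochondrial probe sets (76.9%). The share was 48.1% over all 22746 probe sets and 17 of 45 among the members with no gene listed. Methanol means ran from 4.22 log2 for ycf2 to 11.99 for the brightest chloroplast probe set. The mitochondrial means ran from 3.56 to 10.37. Probe sets differ in how strongly they bind, so these ranges do not order the genes. Of 19 nuclear genes chosen as markers of photosynthetic leaf cells, 2 were matched to a probe set listed for that gene alone. Only genes matched through the annotation count as measured here and below, and the others may still have probe sets on the array. RCA, the activase of the carbon-fixing enzyme Rubisco, stood at 9.13 log2 and LHCB4.1, an antenna protein of photosystem II, at 8.64 in the methanol arrays of the TA set. Neither passed the test with TA (log2 changes of 0.01 and -0.01) or with IXB (-0.13 and -0.04). The root hair marker EXPA7, the 1 measured of 4, was dim at 2.95 log2 and changed by -0.10 with TA, with an adjusted p of 0.698 in limma.

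Replicate methanol cultures differed more in organelle transcripts than in the average transcript. The median SD over the 4 methanol arrays of the TA set was 0.24 log2 for mitochondrial, 0.14 for chloroplast and 0.11 for all probe sets. It ran through whole arrays, and methanol replicate 1 held the highest of the 4 values for 46 of 77 chloroplast and 10 of 13 mitochondrial probe sets. Methanol replicate 3 held the lowest for 51 of 77 chloroplast probe sets. Transcripts of ndhB, an NDH subunit encoded in both copies of the inverted repeat, varied most among the chloroplast members, with methanol values of 6.40, 5.07, 4.12 and 4.86. The first of these was far above the rest, and the 4 TA values of 4.66, 4.46, 4.66 and 4.86 lay inside the methanol range.

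**Figure D1:**
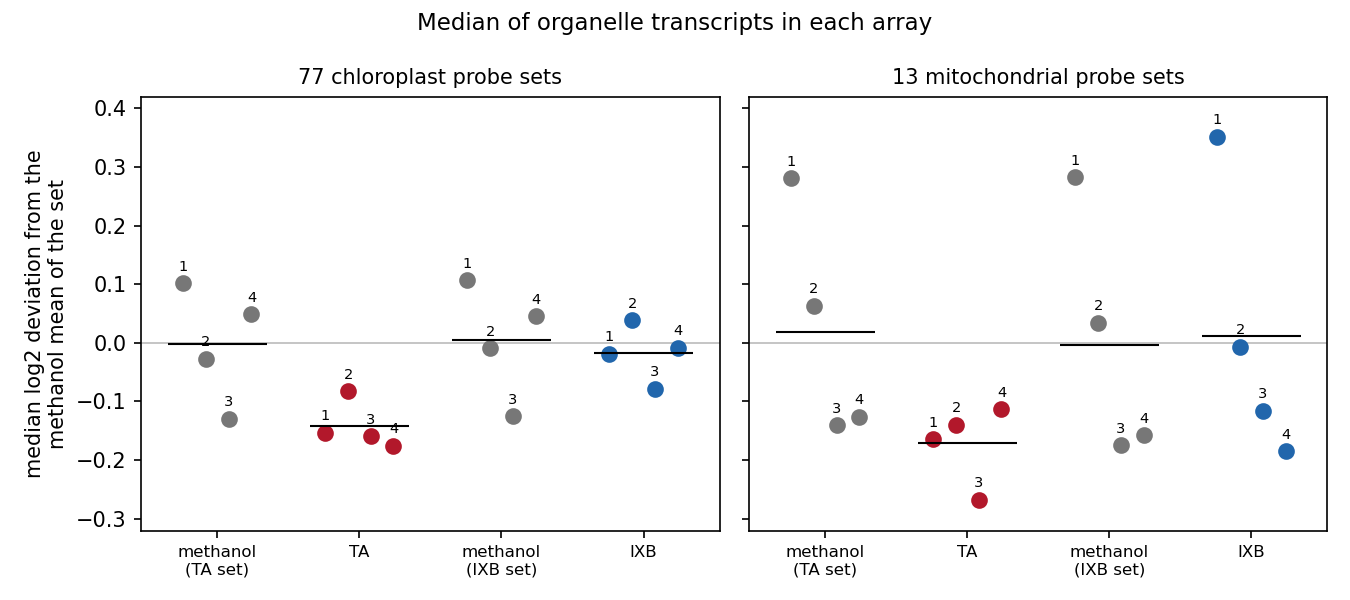
Median log2 deviation from the methanol mean of the set for the 77 chloroplast (left) and 13 mitochondrial (right) probe sets in each of the 16 columns, with the replicate number above each point and a line at the mean of the 4. All 4 TA points lie below 0 in both panels, methanol replicate 3 lies among the TA points on the left, and replicate 1 of methanol and of IXB stand high on the right.

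With TA, organelle transcripts were lower more often than higher, by small amounts. A negative log2 change was seen in 77 of the 90 organelle probe sets, against 54.2% of all probe sets, and the median change was -0.17 for chloroplast and -0.14 for mitochondrial members against -0.01 over all. Passing the test were 6 of 90, all lower, which were 5 chloroplast probe sets (psbT, psbB, ycf2, rpoB and rpl20) and 1 mitochondrial (cox2). Over all probe sets 4.70% were called lower and 5.41% higher, so the share called is near the background and does not set the organelle members apart. At an unadjusted p under 0.05, 21 of 77 chloroplast probe sets were lower against a background of 12.7%, and 0 were higher against 9.8%. In 9 of the 77 all TA arrays lay below all methanol arrays, where the background was 8.57%. In RNA of a whole culture, fewer organelle genomes or cells and less transcript per genome cannot be told apart.

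The array medians set that shift against the spread of the cultures. The median deviation of the 77 chloroplast members from their methanol means was -0.15, -0.08, -0.16 and -0.18 in TA replicates 1 to 4. In the methanol arrays it was 0.10, -0.03, -0.13 and 0.05. The groups overlapped, since methanol replicate 3 lay below TA replicate 2. For the 13 mitochondrial members the TA medians were -0.16, -0.14, -0.27 and -0.11, beside 0.28, 0.06, -0.14 and -0.13 in methanol replicates 1 to 4. These groups overlapped as well, and methanol replicate 1 lay apart at the top. Leaving out methanol replicate 1 brought the chloroplast median change to -0.12, and leaving out TA replicate 4 brought it to -0.12 too. The mitochondrial median change was -0.08 without methanol replicate 1 and -0.22 without methanol replicate 3.

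Photosystem II splits water with light, and its chloroplast genes gave the largest called changes. Transcripts of psbT, a small subunit at the centre of the photosystem, were at 7.34, 7.28, 7.36 and 7.53 log2 with methanol and at 6.84, 6.90, 6.60 and 7.00 with TA. Every TA array was below every methanol array, and TA replicate 3 was lowest. The log2 change was -0.54 ± 0.10 (SE) with an adjusted p of 0.00248 in limma, so that the linear signal fell by 31.4%. Transcripts of psbB, the core antenna protein CP47, were at 7.14, 7.44, 7.57 and 7.35 with methanol and at 6.87, 6.79, 7.06 and 6.62 with TA. The groups did not overlap, although TA replicate 3 came close to methanol replicate 1. The log2 change was -0.54 ± 0.11 with an adjusted p of 0.00692 in limma. Of 15 photosystem II probe sets 12 were below 0, with a median of -0.13, and 2 were called lower, where the background was 4.7%. The gene for the reaction-centre protein D1, psbA, changed by -0.36 (95% interval -0.73 to 0.00) and psbD, its partner D2, by -0.33 (-0.75 to 0.09), and neither passed the test.

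Genes next to each other on the chloroplast genome are often transcribed together, and psbB and psbT are neighbours followed by psbN, psbH, petB and petD. Those 4 changed by -0.13, -0.21, -0.20 and -0.34 log2, all in the same direction as psbB and psbT but with none past the test. The change of psbN, which lies on the opposite strand in this cluster, was the smallest of the group. Along the whole genome, the change of a gene and of the next one correlated only weakly with TA (Pearson's r = 0.17 over 73 neighbouring pairs), given as a description since all values come from the same 8 arrays.

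**Figure D2:**
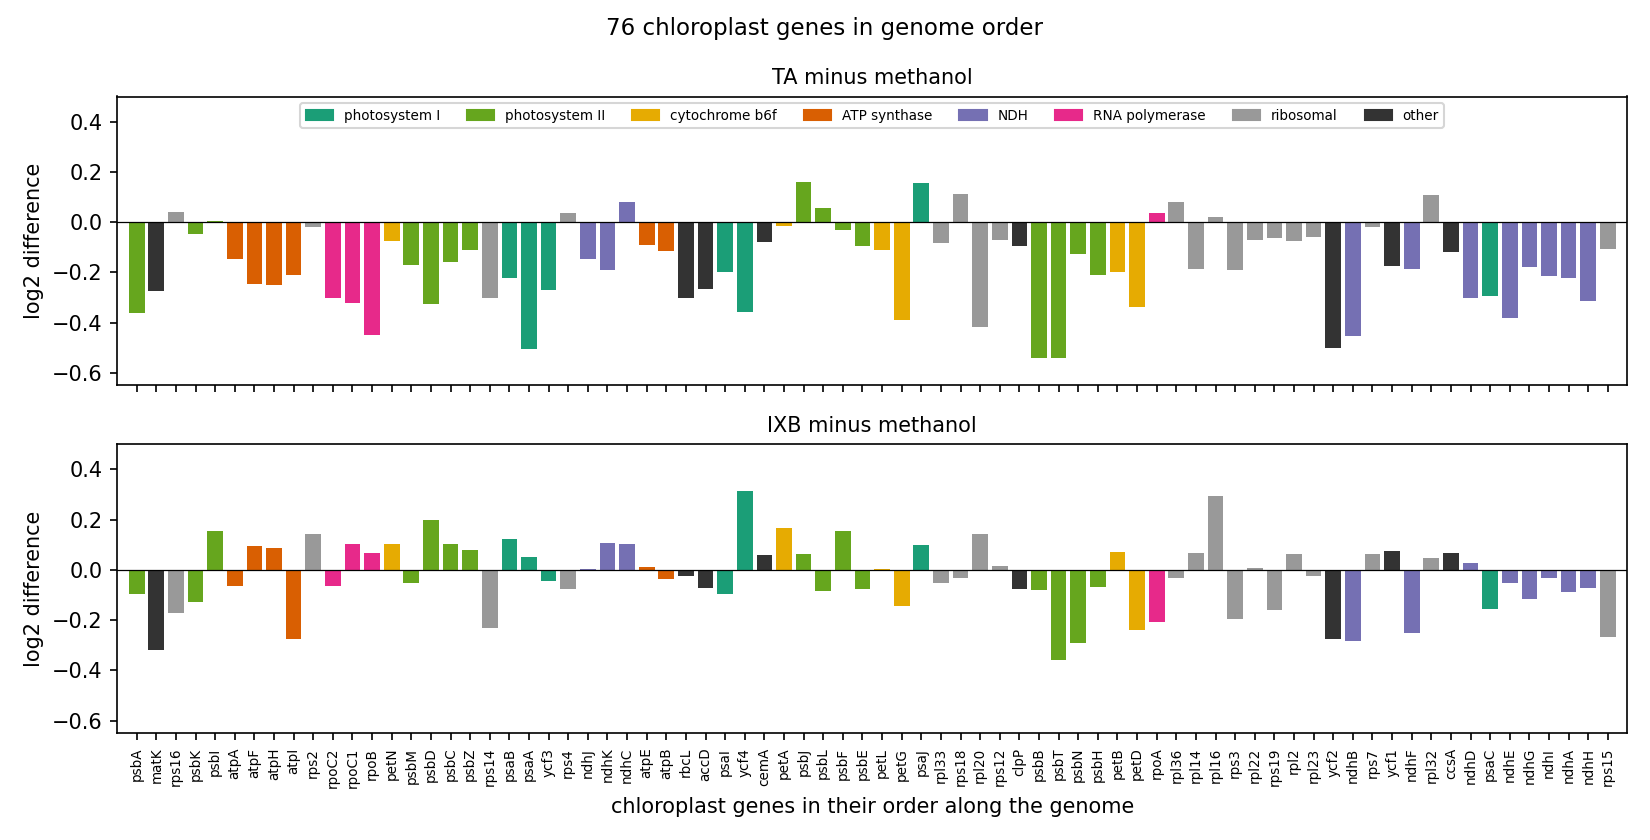
Log2 change with TA (top) and IXB (bottom) for 76 chloroplast genes in their order along the genome, each bar a gene coloured by function. With TA most bars point down, including psbB and psbT side by side at -0.54 each and the run rpoC2, rpoC1 and rpoB at -0.30, -0.32 and -0.45, and with IXB bars point both ways.

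The plastid-encoded RNA polymerase transcribes most photosynthesis genes of the plastid, and 3 of its 4 subunit genes were below 0 with TA. Transcripts of rpoB, the β subunit, were at 5.34, 5.53, 5.39 and 5.46 log2 with methanol and at 5.05, 5.0, 5.13 and 4.73 with TA. No values overlapped, and TA replicate 4 was lowest. All values lay near 5, close to the dim range. The log2 change was -0.45 ± 0.09 with an adjusted p of 0.00729 in limma. Its downstream neighbours rpoC1 and rpoC2, for the β' and β'' subunits, changed by -0.32 and -0.30 without passing the test, and rps2, next in line, by -0.02. The subunit rpoA, which lies elsewhere in the genome, changed by 0.04. The nuclear partners of this enzyme were not followed, since 0 of the 13 listed proteins that join it were matched to a probe set through the annotation.

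Among the 20 probe sets for plastid ribosomal proteins, which form part of the plastid's own translation machinery, rpl20 was the 1 called. It stood at 7.39, 6.95, 6.92 and 7.25 log2 with methanol and at 6.51, 6.82, 6.75 and 6.76 with TA. All TA arrays were below all methanol arrays, with a gap of 0.09 between the nearest values. The change was -0.42 ± 0.11 with an adjusted p of 0.0335 in limma, but it missed the threshold when methanol replicate 1 (0.0968) or 4 (0.102) was left out, or TA replicate 1 (0.0946), 3 (0.0654) or 4 (0.0546). The median of the 20 was -0.07, with 14 below 0. Methanol values spread widely for some genes of this family. The largest SD with methanol in the TA set was 0.54, for rps16, which changed by 0.04. Single methanol values ran from 7.41 to 8.65 for rps18 and from 8.44 to 9.50 for rpl32, and each changed by 0.11 on average.

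Other chloroplast genes gave 1 call. The giant reading frame ycf2, which the literature links to protein import and which is read here by a probe set that matches both inverted repeat copies, was at 4.43, 4.36, 3.94 and 4.14 log2 with methanol. With TA it was at 3.64, 3.82, 3.79 and 3.62. The groups did not overlap, but all values lie in the dim range under 5, where RMA compresses differences. The change was -0.50 ± 0.11 with an adjusted p of 0.00841 in limma. All 8 genes of this mixed list were below 0, among them rbcL, the large subunit of Rubisco, at -0.30, accD, a subunit of the enzyme that starts fatty acid synthesis, at -0.26, matK, an intron maturase, at -0.27, and clpP, a protease subunit, at -0.09. None of these 4 passed the test.

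No probe set was called with TA among the other plastid complexes, which were nonetheless mostly below 0. For photosystem I with its assembly factors ycf3 and ycf4 it was 6 of 7 with a median of -0.27. For the NDH complex it was 10 of 11 with a median of -0.21, for the ATP synthase 6 of 6 with -0.18 and for cytochrome b6f 6 of 6 with -0.16. The largest changes in these families that missed the test were psaA, a core protein of photosystem I, at -0.50 (adjusted p = 0.26 in limma), ndhB at -0.45 (0.505), petG, a small b6f subunit, at -0.39 (0.38) and atpH, the ring subunit of the ATP synthase, at -0.25 (0.107).

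Much of the spread in these families sat in TA replicate 4. In that array 19 of 77 chloroplast probe sets were more than 0.5 log2 below their methanol mean, against 7, 3 and 2 in TA replicates 1 to 3, and the SD over the 77 was 0.41 against 0.22, 0.21 and 0.17. The deepest was psaA, at 8.74, 8.66, 8.66 and 7.32 with TA against 8.70, 8.93, 8.96 and 8.81 with methanol. Replicates 1 to 3 lay at or just under the methanol values, so the mean change of psaA rests on replicate 4, where it stood -1.54 from the methanol mean. Deviations of -1.09 for psbD, -1.05 for ycf4, -1.03 for petG, -1.0 for psbA and -0.89 for ndhD were found in the same array. At the same time rpl32 was 0.48 above its methanol mean there, so the array was not low for every chloroplast transcript. Without TA replicate 4 the number of organelle probe sets called lower was 5 in place of 6.

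**Figure D3:**
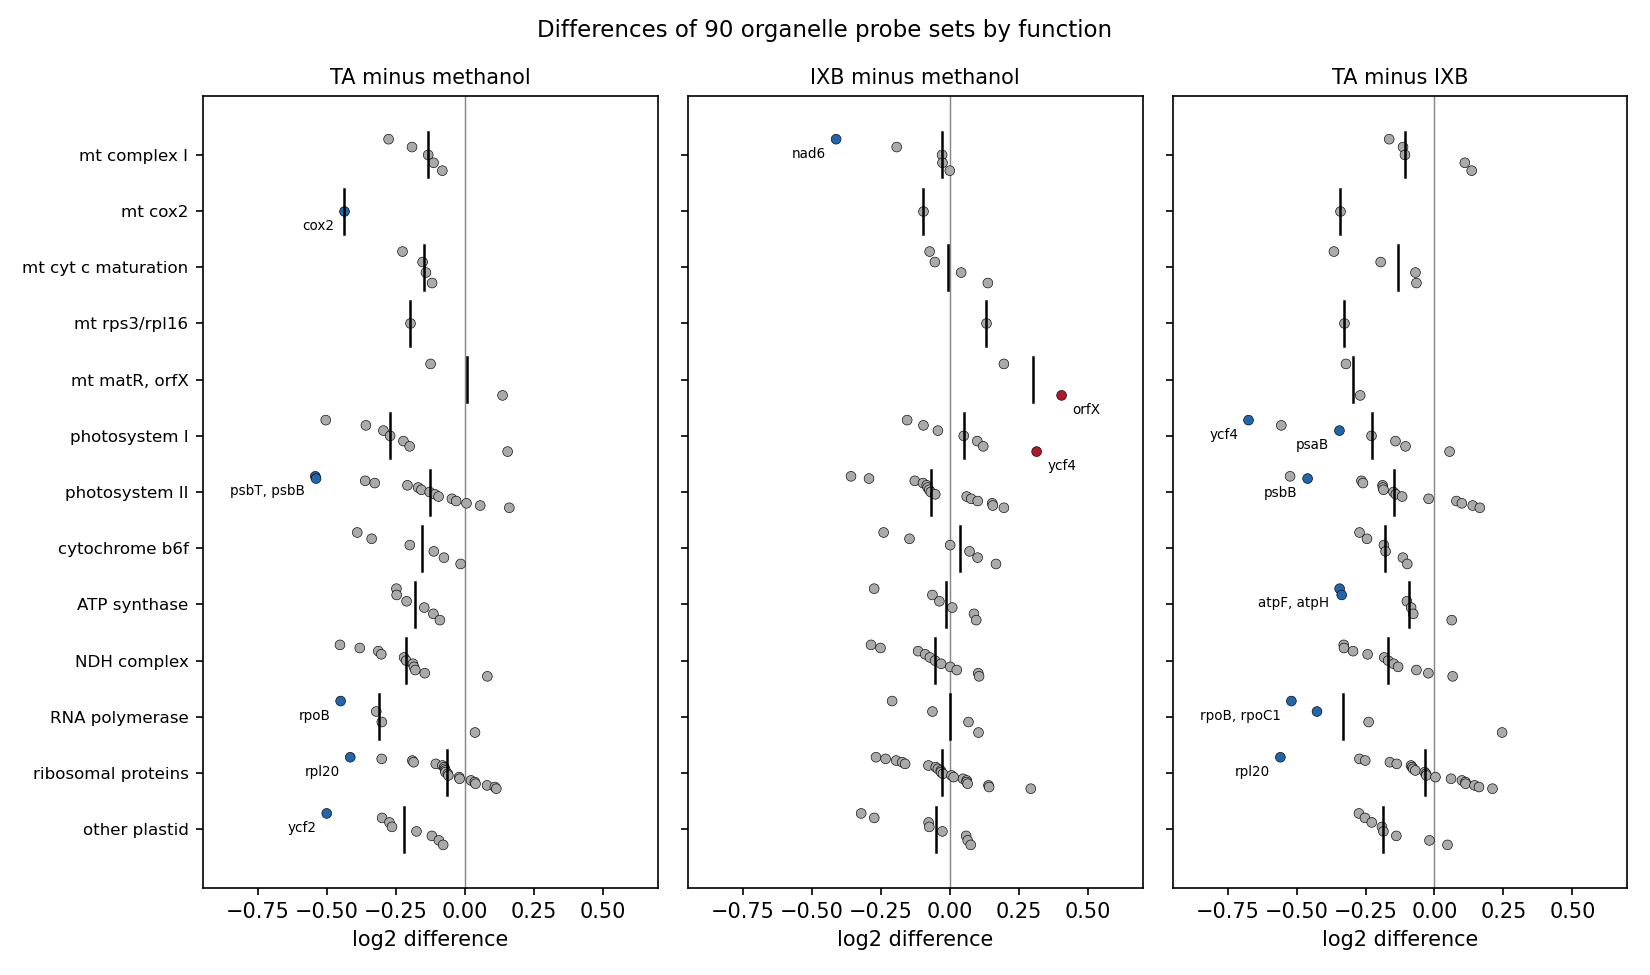
Log2 difference of each of the 90 organelle probe sets (points) by functional group (rows, mt for mitochondrial) for TA minus methanol, IXB minus methanol and TA minus IXB, with a vertical line at the median of each group and blue or red fill for probe sets called lower or higher in limma. The left panel leans below 0 in nearly all groups with 6 blue points, the middle panel is centred near 0 with 1 blue and 2 red points, and the right panel has 8 blue points, all chloroplast.

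In mitochondria, cox2 was called lower with TA. It encodes a core subunit of cytochrome c oxidase, the last enzyme of the respiratory chain, and stood at 8.12, 7.95, 7.59 and 7.66 log2 with methanol and 7.49, 7.44, 7.55 and 7.10 with TA. All TA values were below all methanol values, but TA replicate 3 and methanol replicate 3 were only 0.04 apart. The change was -0.44 ± 0.13 with an adjusted p of 0.0499 in limma, at the threshold. The call was lost without any of methanol replicates 1 (adjusted p = 0.137), 2 (0.135) and 4 (0.0522) or TA replicates 1 (0.0731), 2 (0.0891), 3 (0.0569) and 4 (0.116), and with a robust prior (0.0502).

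The subunits of complex I, the NADH dehydrogenase at the entry of the respiratory chain, were below 0 with TA in 5 of 5 probe sets, and none was called. The lowest was nad6, at 5.49, 5.13, 5.30 and 5.27 with methanol and 5.05, 5.03, 4.92 and 5.09 with TA, which did not overlap. Its change was -0.28 ± 0.09 with an adjusted p of 0.0625 in limma, and it passed the test with dim probe sets left out (0.0333), with array weights (0.0394) and without methanol replicate 2 (0.0398). The subunit nad4L changed by -0.13 (95% interval -0.53 to 0.26), nad4 by -0.19, nad7 by -0.08 and nad9 by -0.11. Methanol replicates 1 and 2 were high for nad4L (6.19 and 6.18) and replicates 3 and 4 low (5.45 and 5.37), with the TA values of 5.40 to 5.90 inside the methanol range. Another 11 probe sets numbered outside the block read the mitochondrial genes nad1, nad2, nad5 and cox1, with a median of -0.12 with TA. In limma 0 of them were called with either compound, and 0 reached an unadjusted p under 0.05.

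The remaining mitochondrial members did not pass the test with TA. The 4 genes for cytochrome c maturation, which attach heme to cytochrome c, lay between -0.23 for ccb206 and -0.12, with ccb382 at -0.14 (95% interval -0.35 to 0.07). The probe set 244944_s_at, listed for both rps3 and rpl16 of the mitochondrial ribosome, changed by -0.20. The maturase gene matR changed by -0.12. The reading frame orfX, also called mttB and related to a bacterial protein translocase, changed by 0.14 and was the 1 mitochondrial member above 0.

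With IXB, organelle transcripts did not lean one way. Of 90 organelle probe sets 49 were below 0, against 53.8% of all probe sets, and the median change was -0.03 for both genomes. Called were 3 of 90, of which orfX and ycf4 were higher and nad6 lower, where the background was 2.20% higher and 0.809% lower. The IXB arrays had chloroplast medians of -0.02, 0.04, -0.08 and -0.01 within the methanol range of -0.13 to 0.11. The mitochondrial medians were 0.35, -0.01, -0.12 and -0.18, so replicate 1 was high, and it held the highest IXB value for 10 of the 13 mitochondrial members.

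Same-numbered IXB and methanol arrays correlated weakly in their deviations from the group means (0.10 to 0.15), and a fit with the replicate number as a block was also made. Correlations of differently numbered arrays were mostly negative, down to -0.212 for methanol 3 with IXB 1. Some were higher than those of the same number, at 0.295 for methanol 2 with IXB 1 and 0.161 for methanol 3 with IXB 4. The numbers may therefore not mark true pairs. Transcripts of orfX stood at 4.94, 4.82, 5.11 and 4.95 log2 with methanol and 5.49, 5.29, 5.26 and 5.41 with IXB. All IXB arrays were above all methanol arrays, all near 5, where the signal is dim. The change was 0.41 ± 0.08 with an adjusted p of 0.022 in limma, but it missed the threshold when methanol replicate 1 (0.0638), 2 (0.061) or 4 (0.0603) was left out, or IXB replicate 1 (0.0653) or 4 (0.0606).

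The gene ycf4, an assembly factor of photosystem I, was the 1 chloroplast gene called with IXB. It stood at 8.44, 8.51, 8.39 and 8.52 with methanol and at 8.81, 8.77, 8.76 and 8.77 with IXB. The IXB arrays were all higher and almost equal, with an SD of 0.022. The change was 0.32 ± 0.06 with an adjusted p of 0.0226 in limma, lost without methanol replicate 1 (0.0688) or IXB replicate 1 (0.0643), 2 (0.0646) or 4 (0.0551). Its neighbours did not move with it: accD changed by -0.07, psaI by -0.10 and cemA by 0.06.

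Transcripts of nad6 were lower with IXB, at 5.29, 5.08, 5.31 and 5.18 log2 against 5.87, 5.50, 5.46 and 5.68 with methanol. The groups did not overlap, and the highest IXB value was 0.15 below the lowest methanol value. The change was -0.41 ± 0.10 with an adjusted p of 0.0436 in limma. It missed the threshold with an intensity trend (0.0505) and without any of 7 arrays, namely methanol replicate 1 (0.1), 2 (0.0546) or 4 (0.115) and each IXB replicate (0.0645 to 0.132). The probe set can bind more than 1 transcript, as its suffix says, and so can those of orfX and matR.

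In 3 organelle probe sets all IXB arrays lay below all methanol arrays, against 6.24% of all probe sets, and in 3 above, against 5.35%. Of these 6, matK, psbT and rpl16 did not pass the test. At an unadjusted p under 0.05, 6 of 90 were lower with IXB (background 9.12%). Transcripts of matK were at 10.04, 9.92, 9.72 and 10.08 with IXB and at 10.40, 10.25, 10.09 and 10.29 with methanol. Every IXB array was below every methanol array. The change was -0.32 ± 0.09, with an adjusted p of 0.103 in limma without and 0.0407 with the replicate block, and of 0.0479 with an intensity trend. Transcripts of psbT changed by -0.36 (adjusted p = 0.168) and of rpl16, a ribosomal protein, by 0.29 (0.0922, and 0.037 with an intensity trend). Other families had their largest IXB changes in atpI (-0.27), ndhB (-0.29), petD (-0.24) and rpoA (-0.21), none past the test, and ccb382 changed by -0.07 and nad4L by -0.03.

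**Figure D4:**
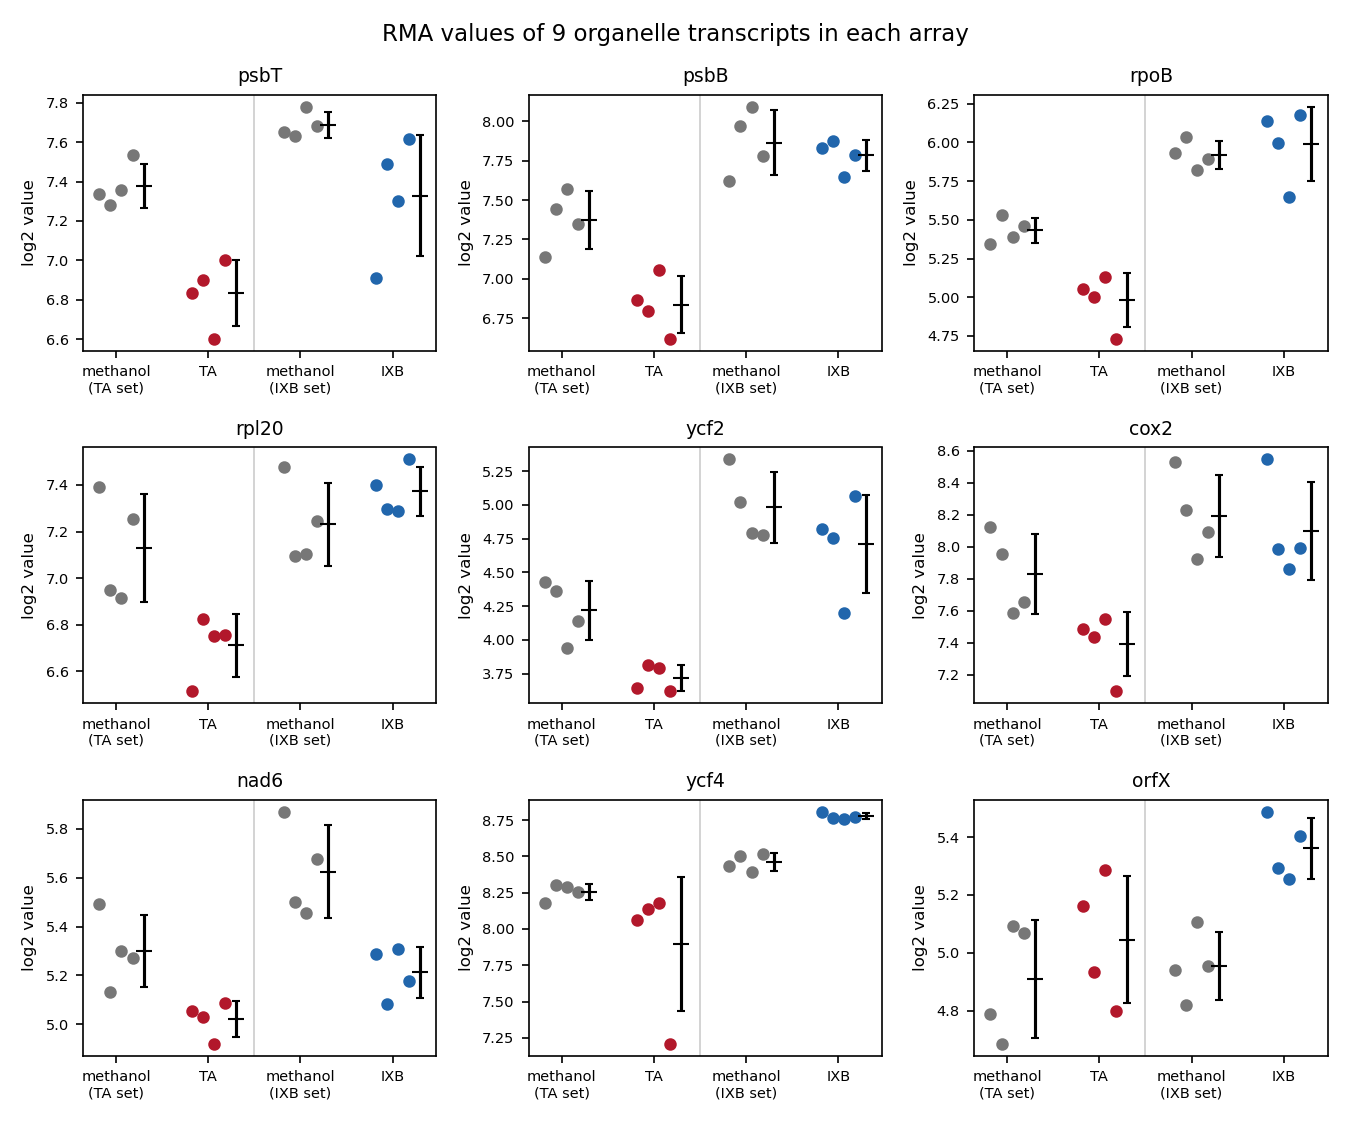
RMA log2 values of 9 organelle transcripts in each array (points, replicates 1 to 4 from left to right in a group) with the mean and SD of the 4 as a bar, the TA set left and the IXB set right of the line in each panel. In psbT, psbB, rpoB, rpl20, ycf2 and cox2 all TA points lie below their methanol points, in ycf4 and orfX all IXB points lie above theirs, and TA replicate 4 of ycf4 stands apart at 7.21.

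Set against each other, the compounds differed in 8 chloroplast transcripts, all lower with TA than with IXB. The difference was tested directly after subtracting, in each set, the mean of its methanol columns. That takes out a shift between the sets, while unequal scales would remain. Both compounds share the 4 methanol arrays. The 8 called were 8 of 90 organelle probe sets, against a background of 2.05% lower, and 0 were higher, against 2.72%. None of the 13 mitochondrial members passed in limma, and 3 of them were lower at an unadjusted p under 0.05, where the background was 9.97%. The median difference was -0.14 for chloroplast and -0.16 for mitochondrial members and -0.0019 over all probe sets, and 71 of 90 were below 0 against 50.6%. Without TA replicate 4 the chloroplast median was -0.09, and without IXB replicate 1 the mitochondrial median was -0.09.

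The largest called difference was ycf4, at -0.67 ± 0.15 with an adjusted p of 0.0211 in limma, from -0.36 with TA and 0.32 with IXB. Of the TA part, -1.05 in replicate 4 stands beside values of -0.08 to -0.20 in the others, while all 4 IXB arrays were between 0.30 and 0.35. Even without replicate 4 the TA arrays lay below the IXB arrays. For rpl20 the difference was -0.56 ± 0.10 (adjusted p = 0.00501), from -0.42 with TA and 0.14 with IXB. It is the 1 organelle call between the compounds that was kept in every alternative run.

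For the polymerase genes the differences were -0.52 ± 0.11 for rpoB (adjusted p = 0.0151 in limma) and -0.43 ± 0.11 for rpoC1 (0.0424). In both, TA was below methanol on average and IXB above, with 0.07 for rpoB and 0.10 for rpoC1. The photosystem genes psbB and psaB differed by -0.46 ± 0.10 (0.0214) and -0.34 ± 0.08 (0.0264). The ATP synthase genes atpF and atpH, neighbours on the genome, differed by -0.34 ± 0.09 (0.0478) and -0.34 ± 0.08 (0.0319). In all 8 transcripts every TA array lay below every IXB array, as it did for 5.50% of all probe sets. For psbT, called lower with TA, the compounds were not shown to differ (-0.18, 95% interval -0.45 to 0.08), and for matK the difference was 0.05 (-0.18 to 0.28).

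The number of these calls rests on few arrays. It was 8 with all arrays, 5 without TA replicate 3, and 4, 2 and 1 without IXB replicates 1, 2 and 4. The count over all probe sets also fell, from 1085 to 663, 486 and 488 without these IXB arrays. Without IXB replicate 4 the adjusted p in limma was 0.0545 for ycf4, 0.0558 for rpoB, 0.0559 for psbB, 0.0818 for psaB, 0.0988 for atpH, 0.101 for rpoC1 and 0.125 for atpF. Without IXB replicate 2 it was 0.0554 for ycf4, 0.0692 for psbB, 0.0675 for atpH, 0.0749 for psaB, 0.0761 for rpoC1 and 0.0979 for atpF, while rpoB and rpl20 stayed under the threshold. The calls of psbB, psaB, rpoC1, atpF and atpH were also lost without other single arrays, with adjusted p-values up to 0.115, and psbB only just (0.0502 without TA replicate 2 and 0.0515 without IXB replicate 1). The call of rpoC1 was lost with the replicate block as well (0.0528), with median centring (0.0537) and with array weights (0.0614), and that of atpF with median centring (0.0537).

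Of the members listed at nuclear loci, the 10 outside the AT2G07 region did not lean below 0 with TA (3 of 10 below, median 0.06). The 10 nuclear genes of the block had 3 called higher with TA in limma, where the background was 5.41%. They were AR781 (0.53, adjusted p = 0.00733), AT2G26390 (0.46, 0.00226) and AT2G26380 (0.36, 0.0219), the last of which missed the threshold without methanol replicate 1 (0.0711) or 4 (0.0737) or TA replicate 2 (0.0695). All TA arrays were above all methanol arrays for these 3 genes, as for 7.45% of all probe sets. The 5 AT2G07 loci were all below 0 with TA, as most organelle probe sets were, with a median of -0.18, and 4 of 5 were above 0 with IXB. Among them AT2G07708 differed between the compounds by -0.40 ± 0.09 (adjusted p = 0.0196 in limma), which missed the threshold without IXB replicate 1 (0.0526), 2 (0.0665) or 4 (0.0596). In probe sets of these loci a nuclear and a mitochondrial copy cannot be told apart. Among the 45 members with no gene listed, 1 was called lower with TA, where the background was 4.7%. It was 244923_s_at (-0.35 ± 0.10, adjusted p = 0.0397 in limma). Its call was lost with the replicate block (0.0553) and with a further quantile normalization (0.0534). It was also lost without any of 7 arrays, methanol replicates 1 to 3 and all TA replicates (0.0503 to 0.1). None of the 45 was called with IXB in limma, where 1 was higher at an unadjusted p under 0.05 (background 8.18%).

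Nuclear genes that serve the organelles were measured in part. The gene for the RNA polymerase that serves mitochondria and plastids, AT5G15700, was the 1 measured of 9 organelle polymerase and sigma factor genes, and it changed by -0.25 with TA (adjusted p = 0.0567 in limma) and by -0.24 with IXB (0.268). Of 3 organelle RNA decay enzymes 1 was measured, the mitochondrial polynucleotide phosphorylase AT5G14580, and it fell by 0.57 on the log2 scale with TA (0.00754), with a change of -0.25 with IXB (0.269). Of 13 genes of alternative respiration, a bypass of the main respiratory chain, 5 were measured, all of them NDB or NDC genes. Among these, NDB2 was called higher with TA (0.39), and NDC1 (-0.40) and NDB4 (-0.33) lower. With IXB none of the 5 was called, with NDB2 at 0.34 (0.0574). Of 11 genes known to respond to mitochondrial dysfunction 6 were measured, and 2 of these were called higher with TA, AT2G32020 (0.85) and again NDB2. With IXB AT2G32020 was called (0.60, adjusted p = 0.025 in limma). For all of these lists the background was 5.41% called higher and 4.7% lower with TA, and 2.2% higher with IXB.

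Genes known to respond to low oxygen, a condition that acts on mitochondria, moved with TA in the same arrays. Of 29 genes of that list 15 were measured. Among these, 14 were called higher with TA and 1 with IXB, where the background was 5.41% and 2.2%. The median deviation of the 15 was 1.78, 1.24, 1.74 and 1.34 log2 in the TA arrays and -0.48, 0.55, 0.95 and 0.84 in the IXB arrays, against -0.50 to 0.32 with methanol. IXB replicate 1, lowest in this list among the IXB arrays, was the array with the highest mitochondrial median. Among the TA arrays, replicate 1 was highest in this list, while the lowest mitochondrial median was in replicate 3. Whether the response of these genes and the organelle values are linked was not tested.

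The brightest chloroplast probe sets had the smallest median change with TA, with near-equal medians in the dimmer classes, given as a description since signal also depends on the probes. The median log2 change was -0.21 in the 19 chloroplast probe sets with a methanol mean under 7 log2, -0.22 in the 29 from 7 to 9 and -0.08 in the 29 of at least 9. All 5 chloroplast calls lay under 9. With IXB the medians were -0.11, 0.00 and -0.02 over the same probe sets.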

How the data were processed

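RNA of 12 samples was hybridised to ATH1 arrays. Per the submitters' processing notes, the authors made the deposited log2 values with RMA. Version, settings and genome build are not given in the sources used here, so no coordinates are printed. Genes came from the platform annotation, and symbols and gene order from the RefSeq table of TAIR10.1. No sequences were available for the members, and none are shown. Members were taken by probe set number, and genome and function by listed symbol. The members and lists were chosen with earlier results of these data known.

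Within the 8 columns of a set, 22746 probe sets were fitted with limma's lmFit and eBayes (version 3.58.1, R 4.3.3, two-sided). A Benjamini-Hochberg adjusted p under 0.05 over all of them counted as called. TA against IXB used deviations from the methanol mean of each set, with both versions of a methanol array averaged. Named were, per comparison, the called members with the largest changes, the member with the largest change of each list, nad4L and ccb382, and, per nuclear list, up to 2 called genes. Neighbours and further members of a family named beside these were chosen after their values were seen. The main fits did not pair arrays by replicate number, and a fit with that number as a block was an alternative run for each comparison. Same-numbered arrays of methanol and IXB correlated at 0.147, 0.101, 0.132 and 0.144 in their deviations from the group means. Differently numbered ones ran from -0.212 to 0.295. Those of methanol and TA with the same number correlated at 0.032, -0.063, 0.295 and 0.078. Code was tested on simulated data. The number of arrays limits the precision.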

Additional observations from a re-analysis of the deposited data

Results flagged for a closer look

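In a group of 4 arrays, an array was marked when its gap to the nearest other, as a share of the group's range, exceeded Dixon's 95% critical value, a bound that chance passes in about 1 of 20 groups. Tested were 120 groups from 30 named members and 8 groups of array medians, in which each methanol array enters in both its deposited versions. Marked were 6, all of named members, which is near the share of groups that chance passes. TA replicate 4 stood alone for psaA, at 7.32 against 8.66 to 8.74 in the other TA arrays, and for ycf4, at 7.21 against 8.06 to 8.18. Methanol replicate 4 of the TA set stood alone for rpoC1, at 9.77 against 9.58 to 9.60. Methanol replicate 1 stood alone for 244923_s_at, at 6.02 against 5.59 to 5.66 in the TA set. The same array, as deposited with IXB, stood at 6.41 against 5.97 to 6.04. IXB replicate 3 stood alone for AT2G07708, at 8.39 against 8.63 to 8.68.

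In 10 members the effects of TA and IXB differed in a direct limma test. Lower with TA than with IXB were ycf4 by a log2 difference of -0.67, rpl20 of -0.56, rpoB of -0.52, psbB of -0.46, rpoC1 of -0.43, AT2G07708 of -0.40 and psaB, atpF and atpH of -0.34 each. AT2G26390 was higher with TA by 0.41, an estimate in which 1 TA array lay within the IXB range. Its adjusted p of 0.0464 rose above the threshold with an intensity trend (0.0536), a further quantile normalization (0.0572), median centring (0.0606) and without any of 9 single arrays (0.0595 to 0.152).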

How the results depend on the processing

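Of 10 members called with TA, 6 kept their call in every alternative run, namely psbT, psbB, rpoB, ycf2, AR781 and AT2G26390 (ycf2 was not tested where dim probe sets or those of other suffixes were left out, and neither were the other members those filters remove). None of the 3 called with IXB did, and between the compounds 1 of 10 did. The organelle probe sets called lower with TA numbered 4 to 8 when an array was left out.

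At a threshold of 0.01 the calls over all probe sets were 1207 with TA, 242 with IXB and 287 between the compounds, and at 0.1 they were 1150 with IXB and 1909 between the compounds. Organelle calls at 0.01 were 0 lower and 0 higher with IXB and 1 lower for TA against IXB. With the replicate block the lower organelle calls with IXB numbered 2, the second being matK. With plain _at probe sets alone they were 0 lower and 1 higher, since nad6 and orfX are then not tested.

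Leaving out an array gave 1678 to 2281 calls over all probe sets with TA, 373 to 639 with IXB and 486 to 1212 between the compounds. The organelle calls were 0 higher with TA, 0 to 2 lower and 0 to 2 higher with IXB, and 1 to 8 lower and 0 higher between the compounds. The chloroplast median ran from -0.19 to -0.12 with TA, -0.07 to 0.0089 with IXB and -0.18 to -0.0937 between them. The mitochondrial median ran from -0.22 to -0.0841, -0.0738 to 0.0866 and -0.21 to -0.092. With 1 array left out, 4 members not called with IXB changed sign in 7 fits. Their log2 changes ran from -0.1718 to 0.0866 for nad4L, -0.0395 to 0.2548 for ccb206, -0.2462 to 0.0152 for cox2 and -0.6113 to 0.1164 for ndhB. The cause was not tested.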
